A study of Homo sapiens with 10 samples.

Results

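The AP-1 genes JUN, JUNB, JUND, FOS, FOSB, FOSL1, FOSL2 and ATF3 were followed through RNA bound by the helicase eIF4A in HEK 293T cells treated with the rocaglates CR-1-31-B or silvestrol. They were taken from the count tables by gene symbol, 8 of 39472 symbols, and the set was selected on earlier results for leader, CDS and 3'UTR counts in these same libraries, so its differences are given as a description. HEK 293T is an established human embryonic kidney line, here with FLAG-tagged eIF4A; the labels do not name the eIF4A paralogue, the promoter of the tagged gene or whether the cells were 1 clone. Bound RNA was recovered by anti-FLAG eCLIP, in which ultraviolet light fixes a protein to the RNA it touches and the RNA pulled down with the protein is sequenced. The groups were CR-1-31-B at 20 nM, silvestrol at 20 nM and vehicle (DMSO), each for 1 h before crosslinking at 254 nm and 400 mJ/cm2, with 3 libraries each, numbered 1 to 3. A single input library, number 2, was made without antibody, and the labels give it no treatment. Per the design text, all 10 libraries came from the tagged cells.

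AP-1 is a transcription factor built as a dimer of basic leucine zipper proteins. JUN proteins can pair with each other or with FOS proteins, whereas FOS proteins need a JUN partner, and ATF3 is a stress-induced member that pairs with JUN proteins. Many AP-1 genes are immediate early genes, copied within minutes of a stimulus into short-lived mRNAs. eIF4A is the RNA helicase of the translation initiation complex eIF4F and acts on the 5' leader, the stretch between cap and start codon. Rocaglates clamp eIF4A onto RNA, with a known preference for runs of the purines A and G.

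The leaders of 4 members are introduced by their longest uninterrupted run of A and G, shown in capitals within 30 bases of the coding strand. JUN and JUNB are shown because their leaders were called (edgeR adjusted p under 0.05), JUND as the remaining JUN gene, and FOSL2 because it held the longest such run of the members. The sequences were read from GENCODE v29 transcripts on GRCh38, with each leader trimmed to the RefSeq (GRCh38.p14) start of the gene. The JUN window lies at chr1:58783579-58783608 on the minus strand, the JUNB window at chr19:12791528-12791557 on the plus strand, the JUND window at chr19:18281485-18281514 on the minus strand and the FOSL2 window at chr2:28392937-28392966 on the plus strand.
JUN: agccacgcAAGAGAAGAAGGAcgtgcgctc
JUNB: agctgggagctGGGGGAAAcgacgccagga
JUND: cccgggccggcgcggcGGGGGAGGcggagg
FOSL2: AGAAAGAGGGAGAGAGAGAGAGAGAGAGAG
The JUN run had 13 bases in a leader of 977 bases. Among 216 tested leaders of like length (within 1.25 times), 55.1% held a run at least as long. The JUNB run had 8 bases in a leader of 276 bases, and 70.4% of 1282 leaders of like length held one as long. JUND also had 8 bases, within the last 30 bases of its leader, and 41.0% of 1128 leaders of like length matched it. FOSL2 stood apart, since its run of 37 bases, of which 30 are printed, was matched in 1.34% of 299 leaders of like length. Purines made up 53.6% of the JUN leader, 54.7% of the JUNB leader, 61.6% of the JUND leader and 54.7% of the FOSL2 leader, beside a median of 51.1% over 6387 tested leaders. The FOSL2 leader was not called, and whether purine runs bear on the fold changes was not tested. The annotation behind the deposited counts is not given in the sources used here, so their leaders may be bounded differently.

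The anti-FLAG libraries held 858733 to 1804732 counts and the input 2193699, and 24713 features (a gene in 1 transcript part or RNA class) had enough counts to be tested, of which 7122 were leaders, 8413 coding sequences (CDS) and 6712 3'UTRs. In the input, the HEK 293T markers VIM, NEFM, NEFL, PAX2 and LHX1 had 326, 53, 70, 34 and 12 counts, while PTPRC, CD3E, HBB, APOA2, INS and KRT20 were at 0 and HBA1, ALB and EPCAM, markers of other tissues too, had 6, 1 and 2. The libraries numbered 2 stood apart for these genes. FOS, FOSB and ATF3 were highest in library 2 of all 3 anti-FLAG groups in each of the 3 parts. The leaders of JUN and JUND, the CDS of JUNB and the 3'UTR of FOSL2 were also highest in library 2 of all 3 groups. Taken 1 feature at a time, 5.02% of the 34236 features compared had library 2 highest in all 3 groups. Leader fold changes refitted without the libraries numbered 2, a fit added after the data were seen, are given for each member that passed the filter in it; the FOS leader did not pass. The series holds no RNA level for each treatment, so more bound RNA and more RNA cannot be told apart.

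Of the 8 members, 7 leaders, 7 CDS and 6 3'UTRs passed the filter on low counts. FOSL1 passed in no part and the 3'UTR of FOS did not pass. A feature is said to be called when its edgeR quasi-likelihood adjusted p over all 24713 features was under 0.05. Unless stated, this fit held no term for the library number. With CR-1-31-B, 1 member leader, that of JUN, was called higher than in DMSO, where 0.8% of all leaders were called higher and 0.291% of all features were called. With silvestrol, 0 member leaders were called, against 0.857% of all leaders higher and 0.255% of all features. For the mean of both rocaglates, the leaders of JUN and JUNB were called, against 1.39% of leaders higher and 0.49% of all features. The calls changed with single libraries. When 1 of the 9 libraries was left out, the JUN leader was called for CR-1-31-B in 6 of 9 fits, lost with DMSO 1, DMSO 3 or CR-1-31-B 2 out. Over both rocaglates the JUN call held in 4 of 9 fits, lost with any DMSO library, silvestrol 1 or CR-1-31-B 2 out. The JUNB call over both rocaglates held in 2 of 9 fits, those with silvestrol 2 or CR-1-31-B 3 out, and limma voom did not make it. Between the compounds, 0% of all features were called by edgeR, DESeq2 or limma voom, and 609 of 24713 had an unadjusted edgeR p under 0.05. No CDS and no 3'UTR of a member was called in any of these 4 comparisons.

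With the library number as a block, 1.48% of all features were called for CR-1-31-B against DMSO, 1.28% for silvestrol against DMSO and 2.04% for both rocaglates. The leaders of JUN and JUNB were then called for each compound against DMSO. The share of all leaders called higher with the block was not counted. Of the 365 and 316 features called for CR-1-31-B and silvestrol, 348 and 308 were higher. The CDS of JUND and the 3'UTR of JUN were called for CR-1-31-B, and the CDS of JUND also for both rocaglates. Between the compounds the blocked fit called 0.00405% of all features, a single one, and that one was the JUN leader. Both compounds are set against the same DMSO libraries, so their values are given side by side.

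JUN encodes the AP-1 subunit c-Jun, which can act as a homodimer. Its leader had the largest gap between the compounds among the member leaders: it was 7.32 times the DMSO level with CR-1-31-B and 2.04 times with silvestrol. In TMM-scaled CPM, the count per feature scaled to library size, the JUN leader had 1944, 4947 and 2250 in CR-1-31-B libraries 1, 2 and 3. It had 920, 1152 and 469 CPM in silvestrol libraries 1, 2 and 3, and 372, 641 and 236 CPM in DMSO libraries 1, 2 and 3. Each CR-1-31-B library was above all silvestrol and all DMSO libraries, while silvestrol library 3 lay below DMSO library 2. The means were 3047 ± 1653 with CR-1-31-B, 847 ± 347 with silvestrol and 416 ± 206 CPM in DMSO (SD, n = 3 each). The log2 fold change of the JUN leader was 2.87 (SE 0.45) for CR-1-31-B against DMSO and 1.03 (SE 0.43) for silvestrol against DMSO. Between CR-1-31-B and silvestrol it was 1.85 (SE 0.44), a fold of 3.60 with a 95% interval of 1.93 to 6.71. Without the libraries numbered 2 the 3 log2 values were 2.83, 1.26 and 1.56 in the same order of comparisons.

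Leaders in which all 3 libraries of one group lay above all 3 of the other were common against DMSO. This held for 15.9% of leaders with CR-1-31-B against DMSO, JUN and JUNB among the members, and for 19% with silvestrol against DMSO, JUNB among the members. With CR-1-31-B above silvestrol it held for 3.19% of leaders, and JUN was the single member. These shares were counted for leaders alone, so none stands beside the CDS and 3'UTR values below. Within all leader counts of a library, the JUN leader took 0.558%, 1.28% and 0.931% in CR-1-31-B libraries 1, 2 and 3. It took 0.246%, 0.353% and 0.145% in the silvestrol libraries, 0.151%, 0.234% and 0.106% in the DMSO libraries and 0.217% in the input. The CR-1-31-B shares were each above the silvestrol, DMSO and input shares.

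The other parts of the JUN mRNA also had higher means with CR-1-31-B, by less, and were not called. The JUN CDS had 166, 271 and 277 CPM in CR-1-31-B libraries 1, 2 and 3, 111, 127 and 58.6 CPM in silvestrol libraries, and 88.1, 190 and 50.4 CPM in DMSO libraries. The CR-1-31-B libraries lay above all silvestrol libraries but overlapped DMSO, and silvestrol and DMSO overlapped. Its log2 fold change was 1.12 (SE 0.43) for CR-1-31-B against DMSO, -0.14 (SE 0.43) for silvestrol against DMSO and 1.26 (SE 0.43) between CR-1-31-B and silvestrol, and 1.70, 0.37 and 1.33 without the libraries numbered 2. The JUN 3'UTR had 313, 608 and 397 CPM in CR-1-31-B libraries, 214, 251 and 291 CPM in silvestrol libraries and 192, 206 and 144 CPM in DMSO libraries. Here the 3 groups did not overlap, in the order CR-1-31-B, silvestrol, DMSO from high to low, a pattern not counted over all 3'UTRs. The log2 fold changes of the JUN 3'UTR were 1.28 (SE 0.35) for CR-1-31-B and 0.48 (SE 0.34) for silvestrol, both against DMSO, and 0.80 (SE 0.34) between CR-1-31-B and silvestrol.

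**Figure D1:**
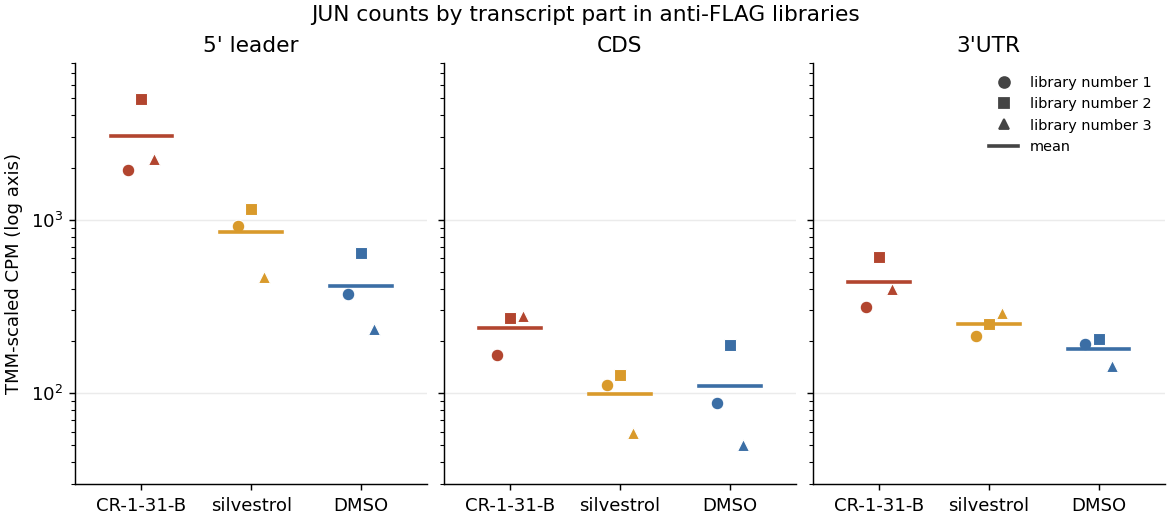
JUN counts in the 5' leader, CDS and 3'UTR as TMM-scaled CPM on a log axis, with 1 point per anti-FLAG library (shape gives the library number) and a line at the mean of 3. The CR-1-31-B leader values of 1944 to 4947 lie above all silvestrol (469 to 1152) and DMSO (236 to 641) values, while CDS and 3'UTR values are closer together.

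Each gene's leader change was then set against the change of its own CDS or 3'UTR. No difference of this kind was called for any member (limma adjusted p under 0.05 over all genes), with or without the block. Against the CDS, 0% of 5537 genes were called for each pair of groups, and 663, 852 and 289 had an unadjusted limma p under 0.05 in the comparisons of CR-1-31-B with DMSO, silvestrol with DMSO and CR-1-31-B with silvestrol. Against the 3'UTR, 0.0236%, 0.0943% and 0% of 4240 genes were called in the same order, and 134 had an unadjusted limma p under 0.05 in the last. The leader change minus the CDS change of JUN was 1.58 on the log2 scale (SE 0.52, 95% interval 0.46 to 2.71, limma over 5537 genes) for CR-1-31-B against DMSO, beside a median of 0.33 over those genes. For silvestrol against DMSO it was 1.06 (SE 0.52, interval -0.07 to 2.18), beside a median of 0.51. Between CR-1-31-B and silvestrol it was 0.53, with an interval of -0.60 to 1.65 that spans 0, so a difference between the compounds in how much the leader gained over the CDS was not resolved. Against the 3'UTR, the JUN leader gained 1.62 (interval 0.26 to 2.98) with CR-1-31-B and 0.56 (interval -0.80 to 1.93) with silvestrol, and the difference between the compounds was 1.06 (interval -0.30 to 2.42). The medians over 4240 genes were 0.61, 0.64 and -0.04 for the same 3 comparisons. For the other members the leader minus CDS difference between CR-1-31-B and silvestrol was -0.45 (JUND), -1.63 (FOS), -1.08 (FOSB) and -1.22 (FOSL2). It was -0.02 for JUNB and 0.30 for ATF3, beside a median of -0.20 over 5537 genes. Against the 3'UTR it was -0.15 (JUNB), -0.63 (JUND), -0.81 (FOSB), -0.10 (FOSL2) and 0.45 (ATF3). Each of these intervals spanned 0.

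The leader held the larger part of the JUN counts in all anti-FLAG libraries. Of the JUN counts in leader, CDS and 3'UTR, the leader held 80.2%, 84.9% and 76.9% in CR-1-31-B libraries 1, 2 and 3. It held 73.9%, 75.3% and 57.3% in silvestrol libraries and 57.1%, 61.8% and 54.8% in DMSO libraries. The input library had 42.8% (95% Clopper-Pearson interval 39.5% to 46.2%). CR-1-31-B libraries were all above silvestrol and DMSO, a pattern not counted gene by gene, and silvestrol library 3 fell among the DMSO values. Over all genes together the leader share was 36.2% ± 6.40 with CR-1-31-B, 37.9% ± 2.17 with silvestrol and 27.9% ± 2.07 in DMSO (SD, n = 3 each), and 12.9% in the input. For JUN the mean leader shares were 80.7% ± 4.01 with CR-1-31-B and 68.8% ± 9.99 with silvestrol, while over all genes the compounds overlapped within their SD.

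**Figure D2:**
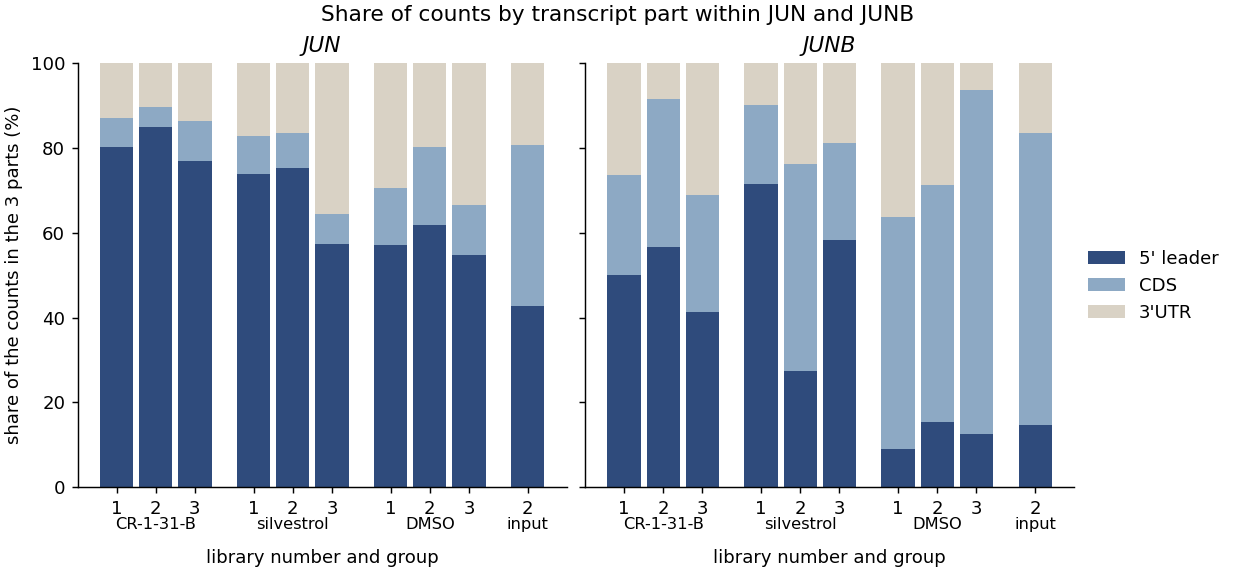
Share in percent of each library's JUN (left) and JUNB (right) counts that fell in the 5' leader, CDS and 3'UTR, with 1 stacked bar per library, grouped as CR-1-31-B, silvestrol, DMSO and input. The JUN leader share is 76.9% to 84.9% with CR-1-31-B and 54.8% to 61.8% in DMSO; the JUNB leader share is 27.5% to 71.4% with the rocaglates and 9.09% to 15.4% in DMSO.

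JUNB, a JUN family protein with weaker activating power than c-Jun, had few counts. Its leader difference from DMSO was about that of JUN with CR-1-31-B and was the largest of the members with silvestrol. Its leader had 23.8, 69.2 and 13.9 CPM in CR-1-31-B libraries 1, 2 and 3 and 39.2, 25.0 and 35.7 CPM in silvestrol libraries, against 2.94, 8.49 and 2.29 CPM in DMSO libraries. All 6 rocaglate libraries were above all DMSO libraries, and the compounds overlapped. These DMSO values rest on 3, 8 and 2 counts. The log2 fold change of the JUNB leader was 2.94 (SE 0.67) for CR-1-31-B against DMSO, 2.84 (SE 0.67) for silvestrol against DMSO and 0.10 (SE 0.56) between CR-1-31-B and silvestrol. The interval of that last fold, 0.48 to 2.40, leaves room for a difference in either direction. Without the libraries numbered 2 the log2 values were 2.86, 3.84 and -0.98, so the order of the compounds for JUNB turned with library 2.

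The rest of the JUNB mRNA overlapped between the 3 groups. The JUNB CDS had 11.2, 42.4 and 9.27 CPM in CR-1-31-B libraries 1, 2 and 3 and 10.2, 44.4 and 14.0 CPM in silvestrol libraries, against 17.6, 30.8 and 14.9 CPM in DMSO libraries. Libraries 1 and 3 of both compounds were below the DMSO libraries of their number, and library 2 was above. The JUNB CDS averaged 21.0 ± 18.6 CPM with CR-1-31-B, 22.9 ± 18.7 with silvestrol and 21.1 ± 8.50 in DMSO, with log2 fold changes of -0.00 (fold interval 0.39 to 2.53) and 0.09 (fold interval 0.42 to 2.71) against DMSO. Without the libraries numbered 2 they were -0.60 and -0.38. The JUNB 3'UTR averaged 11.1 ± 1.25, 12.8 ± 8.18 and 9.60 ± 7.62 CPM in the same order of groups. The leader change minus the CDS change of JUNB was 2.62 (interval 1.20 to 4.03) for CR-1-31-B and 2.64 (interval 1.23 to 4.05) for silvestrol, both against DMSO, and it differed between the compounds by -0.02 (interval -1.43 to 1.39). The leader held 50.0%, 56.7% and 41.4% of the JUNB counts in CR-1-31-B libraries and 71.4%, 27.5% and 58.3% in silvestrol libraries. It held 9.09%, 15.4% and 12.5% in DMSO libraries and 14.8% (interval 6.98% to 26.2%) in the input. The 3 DMSO shares lay within the interval of the input, and all rocaglate libraries were above them, a pattern not counted over all genes. With CR-1-31-B, the JUN leader and 3'UTR lay above all DMSO libraries, and the JUN CDS overlapped DMSO. The JUNB leader was above DMSO in each library of either compound, while the JUNB CDS and 3'UTR overlapped between the 3 groups.

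JUND encodes the more steadily expressed JUN family protein. Its leader had 178, 343 and 188 CPM in CR-1-31-B libraries 1, 2 and 3, 158, 321 and 192 CPM in silvestrol libraries and 61.7, 186 and 139 CPM in DMSO libraries. Both compounds overlapped DMSO through DMSO library 2, although each rocaglate library was above the DMSO library of its own number. The log2 fold changes of the JUND leader were 0.88 (SE 0.41) for CR-1-31-B and 0.80 (SE 0.41) for silvestrol, both against DMSO, and 0.91 and 0.88 without the libraries numbered 2. In JUND the CDS was the part in which both compounds lay above all DMSO libraries. It had 334, 584 and 594 CPM in CR-1-31-B libraries and 292, 397 and 334 CPM in silvestrol libraries, against 145, 288 and 213 CPM in DMSO libraries. The compounds overlapped, the lowest silvestrol value was close to the highest DMSO value, and the pattern was not counted over all CDS. The log2 fold changes of the JUND CDS were 1.23 (SE 0.36) with CR-1-31-B and 0.66 (SE 0.35) with silvestrol. The JUND 3'UTR averaged 178 ± 119 CPM with CR-1-31-B, 94.4 ± 15.9 with silvestrol and 127 ± 72.6 in DMSO, and the groups overlapped. The leader change of JUND minus its CDS change was -0.29 (interval -1.43 to 0.85) and 0.16 (interval -0.98 to 1.30) for CR-1-31-B and silvestrol, below the medians over all genes.

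**Figure D3:**
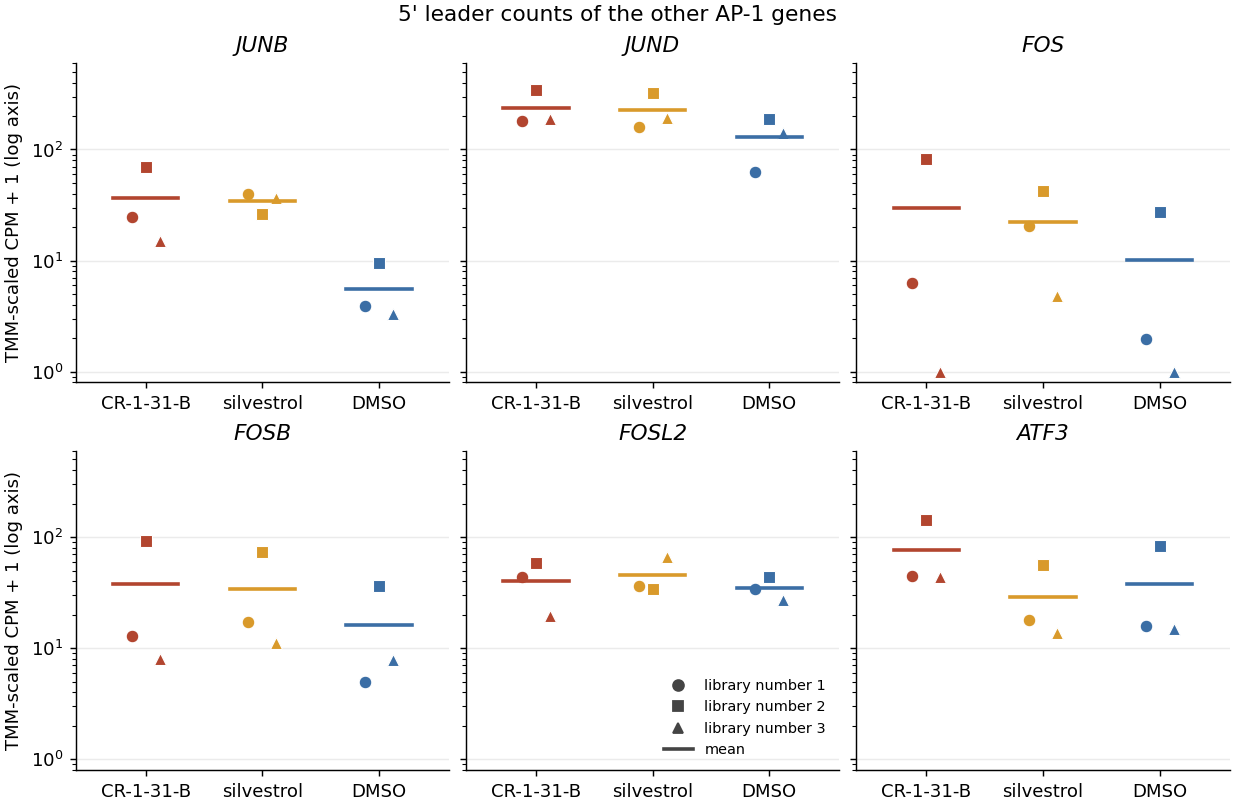
Leader counts of JUNB, JUND, FOS, FOSB, FOSL2 and ATF3 as TMM-scaled CPM plus 1 on a log axis, with 1 point per anti-FLAG library (shape gives the library number) and a line at the mean of 3. JUNB separates both rocaglates (13.9 to 69.2) from DMSO (2.29 to 8.49), and the squares of library number 2 are the highest points of FOS, FOSB and ATF3 in each group.

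FOS and FOSB encode partners that need a JUN protein to form the dimer. The FOS leader had 5.29, 80.4 and 0 CPM in CR-1-31-B libraries 1, 2 and 3, 19.3, 40.9 and 3.82 CPM in silvestrol libraries and 0.979, 26.5 and 0 CPM in DMSO libraries. The counts behind these are 8, 93 and 0, then 32, 36 and 3, then 1, 25 and 0. The spread between libraries of 1 group was wider than any gap between groups, with library 2 on top throughout. The FOS leader's log2 fold changes against DMSO were 1.63 (SE 1.14) with CR-1-31-B and 1.21 (SE 1.15) with silvestrol. The FOS CDS averaged 27.3 ± 24.9 CPM with CR-1-31-B, 18.0 ± 23.8 with silvestrol and 18.5 ± 20.1 in DMSO. The FOS leader change minus its CDS change was 0.30 (interval -1.69 to 2.28) with CR-1-31-B and 1.93 (interval -0.06 to 3.92) with silvestrol.

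The FOSB leader had 11.9, 91.7 and 6.95 CPM in CR-1-31-B libraries, 16.3, 72.8 and 10.2 CPM in silvestrol libraries and 3.92, 35.0 and 6.87 CPM in DMSO libraries. Each rocaglate library was above the DMSO library of its own number, yet the groups overlapped. The log2 fold changes of the FOSB leader were 1.27 (SE 0.85) with CR-1-31-B and 1.1 (SE 0.85) with silvestrol, and 0.88 and 1.38 without the libraries numbered 2. The FOSB CDS averaged 12.4 ± 10.9 CPM with CR-1-31-B, 4.20 ± 0.36 with silvestrol and 17.4 ± 21.7 in DMSO, where library 2 alone had 42.5 CPM. The FOSB leader change minus its CDS change was 1.01 (interval -0.63 to 2.66) with CR-1-31-B and 2.09 (interval 0.44 to 3.73) with silvestrol, beside medians of 0.33 and 0.51 over all genes, and neither was called. The FOSB CDS did not pass the filter without the libraries numbered 2.

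FOSL1 and FOSL2 encode the FOS-related proteins FRA1 and FRA2. FOSL1 was close to undetected: its leader had 2 counts in silvestrol library 3 and 0 in each other library, input included. Its CDS had 2 to 12 counts with CR-1-31-B, 6 to 11 with silvestrol and 0 to 8 in DMSO. With 0 counts in the input, the exact Poisson interval of the FOSL1 leader reached 1.68 CPM. It did not pass the filter, so a FOSL1 leader difference was not testable at this depth. The FOSL2 leader had 43.0, 57.1 and 18.5 CPM in CR-1-31-B libraries 1, 2 and 3, 34.9, 33.0 and 65.0 CPM in silvestrol libraries and 33.3, 42.5 and 26.3 CPM in DMSO libraries. All 3 groups overlapped. The FOSL2 leader had the smallest log2 fold change of the member leaders for CR-1-31-B against DMSO (0.23, SE 0.46), and its value with silvestrol was 0.37 (SE 0.46). The 95% intervals reach from a fold of 0.60 to 2.26 with CR-1-31-B and from 0.66 to 2.50 with silvestrol, so a doubling is within both. Without the libraries numbered 2 the log2 values were 0.13 and 0.78. The FOSL2 3'UTR averaged 21.6 ± 14.5 CPM with CR-1-31-B, 21.9 ± 8.73 with silvestrol and 20.4 ± 8.11 in DMSO. The FOSL2 leader change minus its CDS change was -0.24 (interval -1.61 to 1.13) with CR-1-31-B and 0.98 (interval -0.40 to 2.35) with silvestrol.

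ATF3 encodes the stress-induced member. Its leader had 43.6, 140 and 42.9 CPM in CR-1-31-B libraries 1, 2 and 3, 16.9, 54.6 and 12.7 CPM in silvestrol libraries and 14.7, 82.8 and 13.7 CPM in DMSO libraries. In each number the CR-1-31-B library was above the silvestrol and the DMSO library, but the groups overlapped through the libraries numbered 2. The ATF3 leader's log2 fold changes were 1.03 (SE 0.63) for CR-1-31-B against DMSO, -0.42 (SE 0.65) for silvestrol against DMSO and 1.44 (SE 0.64) between CR-1-31-B and silvestrol, a fold of 2.72 with an interval of 1.09 to 6.81. Without the libraries numbered 2 the log2 values of the leader were 1.64, 0.15 and 1.49 in the same order, so that of silvestrol against DMSO turned sign. The CDS and 3'UTR of ATF3 gave log2 values of 1.40 (SE 0.81) and 1.26 (SE 0.70) between the compounds. The ATF3 leader change minus its CDS change was 0.13 (interval -1.53 to 1.79) with CR-1-31-B and -0.17 (interval -1.83 to 1.48) with silvestrol. The leader held 62.9%, 55.9% and 56.9% of the ATF3 counts in CR-1-31-B libraries 1, 2 and 3, 43.1%, 61.5% and 55.6% in silvestrol libraries and 32.6%, 51.7% and 52.2% in DMSO libraries. Each CR-1-31-B library was above each DMSO library, and silvestrol overlapped both. The mean shares were 58.5% ± 3.77 with CR-1-31-B, 53.4% ± 9.42 with silvestrol and 45.5% ± 11.1 in DMSO.

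**Figure D4:**
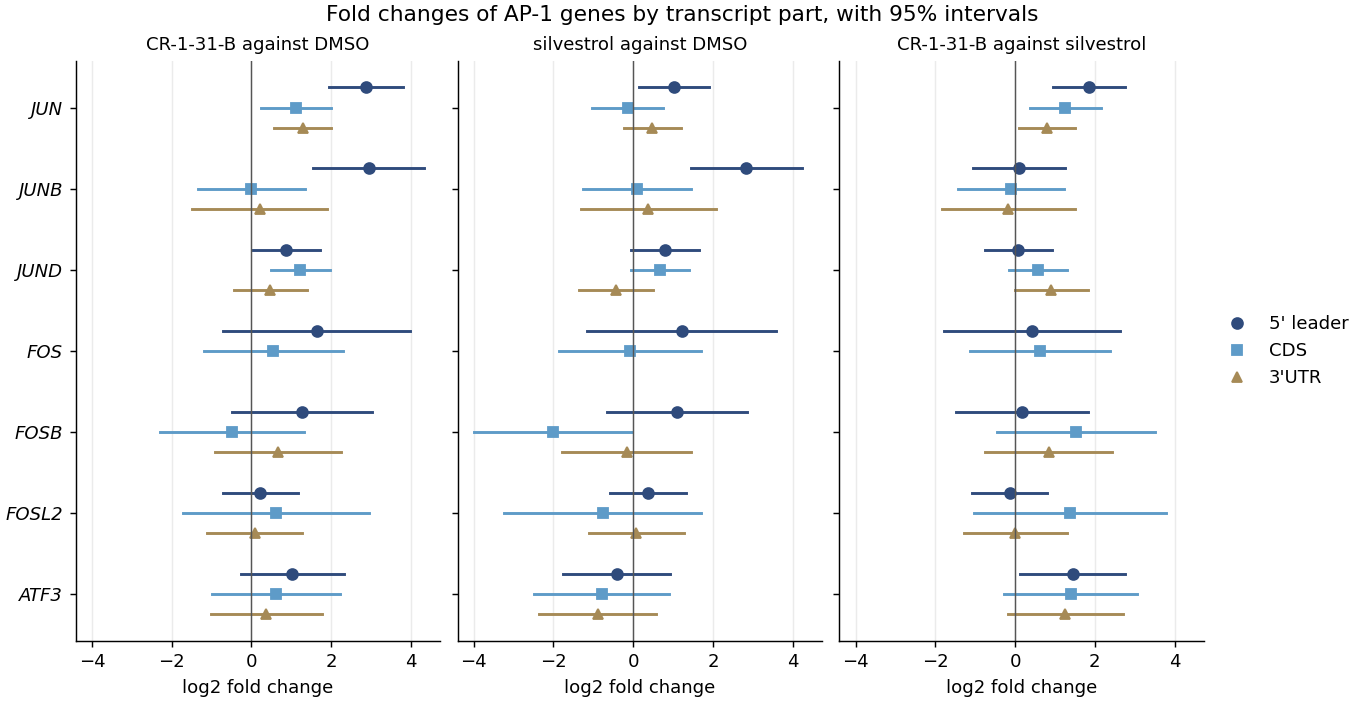
Log2 fold changes with 95% intervals from edgeR for the leader, CDS and 3'UTR of 7 AP-1 genes, with CR-1-31-B against DMSO on the left, silvestrol against DMSO in the middle and CR-1-31-B against silvestrol on the right; the first and second panel share the DMSO libraries. JUN is at 2.87 and JUNB at 2.94 for the leader in the left panel, and in the right panel JUN is at 1.85 while JUNB is at 0.10.

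Over the 7 tested member leaders the median log2 fold change was 1.27 for CR-1-31-B against DMSO, from 0.23 to 2.94, and 7 were above 0. Over all 7122 leaders the median was 0.35 and 67.6% were above 0. For silvestrol against DMSO the member median was 1.03, from -0.42 to 2.84, with 6 above 0, beside 0.40 and 70.4% over all leaders. Between CR-1-31-B and silvestrol the member median was 0.17, from -0.14 to 1.85, with 6 above 0, beside -0.05 and 46.3% over all leaders. The highest value was the JUN leader's. The member CDS had medians of 0.61, -0.14 and 1.26 in the same order of comparisons, beside -0.03, -0.12 and 0.11 over 8413 CDS. For 6 member 3'UTRs the medians were 0.42, -0.04 and 0.82, beside -0.27, -0.26 and -0.01 over 6712 3'UTRs. These members were those that passed the filter, and several share the high libraries numbered 2.

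DMSO set against input shows how strongly each part was recovered with eIF4A, in plain CPM and with 1 input library, so without a test. Since the input is numbered 2, the ratio of DMSO library 2 alone is given for the JUN leader and beside each ratio below that it moved by over 1.5 times. The JUN leader had 378 ± 173 CPM in DMSO (SD, n = 3) and 165 CPM in the input (361 counts, Poisson interval 148 to 182 CPM), a ratio of 2.30. The median ratio of 1836 leaders with at least 20 input counts was 2.19, close to that of JUN over the 3 DMSO libraries. The JUN CDS had a ratio of 0.68 and the JUN 3'UTR of 2.24, where the medians were 0.94 over 7331 CDS and 1.01 over 5886 3'UTRs. With DMSO library 2 alone the medians were 2.19 for leaders, 0.85 for CDS and 0.86 for 3'UTRs. The JUN leader ratio was then 3.42, above the leader median, and the JUN CDS ratio was 1.14. JUND was the member most enriched in DMSO: its leader had 117 ± 53.0 CPM in DMSO and 8.66 CPM in the input, a ratio of 13.5 that rests on 19 input counts (5.21 to 13.5 CPM). The JUND CDS and 3'UTR had ratios of 2.19 and 3.26, and the 3'UTR 1.89 with DMSO library 2 alone. The JUNB leader and CDS had ratios of 1.00 each, and the leader 1.81 with DMSO library 2 alone, on 8 counts in DMSO and 9 in the input. The CDS ratios of FOS, FOSB and ATF3 were 0.40, 0.56 and 0.63, under the CDS median. With DMSO library 2 alone these 3 CDS ratios were 0.88, 1.36 and 1.13, above the CDS median of that library.

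Genes around AP-1 were counted in 4 lists, of partner, upstream, turnover and target genes. Of 24 other basic leucine zipper genes that can pair with AP-1 proteins or each other, 16 leaders were tested and 0 were called in any comparison. Their median log2 fold change was 0.73 for CR-1-31-B and 0.49 for silvestrol, both against DMSO, beside 0.35 and 0.40 over all leaders. Over both rocaglates the highest of these leaders was that of ATF7 (1.30, SE 0.50, edgeR adjusted p = 0.332) and the lowest that of JDP2 (-0.56, SE 0.61, edgeR adjusted p = 0.837). Of 25 kinases and factors upstream of AP-1, 19 leaders were tested and 0 called, with medians of 0.49 and 0.40. MAPK3, which encodes the kinase ERK1, was highest (2.19, SE 0.75, edgeR adjusted p = 0.247) and MAP2K3, a kinase of the p38 pathway, lowest (-0.60, SE 0.56, edgeR adjusted p = 0.793).

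Of 19 genes for turnover and inhibition of AP-1 or its kinases, 13 leaders were tested and 0 called, with medians of 0.46 and 0.24. DUSP1, a phosphatase of mitogen-activated kinases, was highest over both rocaglates (1.39, SE 0.47, edgeR adjusted p = 0.235, and 0.0161 with the block), and SKP1, a ubiquitin ligase subunit, lowest (-0.27, SE 0.79, edgeR adjusted p = 0.948). With the block, the DUSP1 leader and CDS were called for CR-1-31-B against DMSO (edgeR adjusted p = 0.0113 and 0.0167) and the leader of CUL1, the ligase scaffold, for both rocaglates (edgeR adjusted p = 0.0497). Of 24 target genes of AP-1, 9 leaders were tested, with medians of 0.51 and 0.90, and 1 was called. That was CCND1, the gene of cyclin D1, whose leader rose to 63.9 ± 10.3 CPM with CR-1-31-B and 81.4 ± 0.605 CPM with silvestrol, against 9.96 ± 4.55 CPM in DMSO (SD, n = 3 each). The CCND1 log2 fold changes were 2.68 (SE 0.44, edgeR adjusted p = 0.00889) and 3.02 (SE 0.44, edgeR adjusted p = 0.00381), and -0.34 (SE 0.38) between the compounds. CCND1 was no longer called for CR-1-31-B when CR-1-31-B library 2, DMSO library 1 or DMSO library 3 was left out, nor for silvestrol when DMSO library 3 was. The lowest of the target leaders over both rocaglates was PLAUR (-0.34, SE 0.81, edgeR adjusted p = 0.934). With the block the leader of GADD45A, a growth arrest gene, was also called for both compounds (edgeR adjusted p = 0.00111 for CR-1-31-B and 0.00870 for silvestrol). No CDS or 3'UTR of the 4 lists was called without the block.

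The leaders whose log2 CPM followed that of JUN most closely over the 9 anti-FLAG libraries were IER2, CAND1, PATL1, LMTK2 and VAMP7, out of 3880 leaders with at least 20 CPM on average. Pearson's r was 0.95, 0.94, 0.94, 0.93 and 0.93, as a description of libraries that share group, number and depth. IER2, another immediate early gene, had leader means of 108 CPM with CR-1-31-B, 39.8 with silvestrol and 14.8 in DMSO, and CAND1 had 331, 151 and 83.5 CPM. Among the members compared, r with JUN was 0.77 for the leader of ATF3, 0.72 for JUNB, 0.65 for JUND, 0.56 for FOSB and 0.11 for FOSL2.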

How the data were processed

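The deposited values are raw read counts per gene symbol, 1 file per library, in 7 classes per the file headers, of which the 5' leader, CDS and 3'UTR classes are used. Per the submitters' processing notes, cutadapt and Bowtie 1.1 were used. Genome build, annotation, strand use, duplicate handling and counting rule are not given in the sources used here, so reads of overlapping or antisense genes cannot be told apart. Each file's 1 blank line was left out. Totals were 858733 to 1804732 counts for the anti-FLAG libraries and 2193699 for the input. Intervals on counts cover counting error only. Ratios of DMSO to input were taken only above a floor of 3 input counts.

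The members and gene lists were chosen with earlier results of these data known. The named list genes were those called in a comparison, plus the highest and lowest leader of each list over both rocaglates, and the genes called with the block. The 9 anti-FLAG libraries were fitted together with edgeR 4.0.16 in R 4.3.3 (filterByExpr by group, TMM, quasi-likelihood test, Benjamini-Hochberg over 24713 features, threshold 0.05). Leader change minus CDS or 3'UTR change was fitted with limma 3.58.1 on log2 CPM (prior count 2). DESeq2 1.42.0, limma voom, other scaling, no filter, a replicate block and leaving out libraries were alternatives. The labels do not say whether numbers mark separate cultures, so p-values measure the spread between these libraries. Whether numbers pair libraries was checked on deviations from group means. The 9 same-number pairs correlated at 0.102 to 0.263 and the others at -0.203 to 0.0163, and each library was closest to its own number. On this evidence the numbers were taken as pairs in the fits with the block. The main edgeR and limma fits held no term for the number. On simulated counts the edgeR step called 64, 70 and 74 of 100 4-fold changes among 24713 features for CR-1-31-B against DMSO, silvestrol against DMSO and CR-1-31-B against silvestrol, and 2, 4 and 5 of 100 2-fold changes. The changes were placed only in features above a minimum mean count, so these rates do not cover members with few counts. No difference between library numbers was simulated.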

Additional observations from a re-analysis of the deposited data

How the results depend on the processing

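The JUN leader kept its direction in every setting run. For CR-1-31-B against DMSO it was 2.37 to 3.36 (log2) over the fits that left out 1 of the 9 libraries and was called in 6, but not without DMSO library 1 (2.85), DMSO library 3 (2.60) or CR-1-31-B library 2 (2.37). For both rocaglates it was 1.68 to 2.44 and called in 4, lost without any 1 DMSO library, silvestrol library 1 or CR-1-31-B library 2. JUNB was called for both rocaglates in 2 of these 9 fits, those without silvestrol library 2 or CR-1-31-B library 3. For silvestrol against DMSO, JUN was called with the replicate block alone (1.06), and for CR-1-31-B against silvestrol with the replicate block (1.82) or with no filter (1.85). The leader minus CDS difference of JUN kept its direction and was not called in any setting, pairing by number included (1.58 for CR-1-31-B against DMSO).

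Counts of called features moved most. In the order CR-1-31-B against DMSO, silvestrol against DMSO and both rocaglates, the 72, 63 and 121 calls became 225, 215 and 320 with no filter, 335, 308 and 531 with DESeq2 and 365, 316 and 505 with the replicate block. Over the fits that left out 1 library they were 0 to 226, 4 to 100 and 7 to 287. The sets tested differed, so these counts are not shares of the same total. The main, DESeq2 and block fits tested 24713 features and the fit with no filter 66402. The fits that left out 1 library tested 26714 to 27600. CR-1-31-B against silvestrol had 7 calls with no filter, 1 with the block and 0 over the fits that left out 1 library. Without all libraries numbered 2, an alternative added after the data were seen, 9, 93 and 58 features were called in the same order.

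Member leaders called for CR-1-31-B against DMSO were 1 in the edgeR fit and 2 (JUN, JUNB) with no filter, DESeq2 or the block. They were 0 to 2 over the fits that left out 1 library. Over all features the calls were 72 of 24713 (edgeR), 225 of 66402 (no filter), 335 of 24713 (DESeq2) and 365 of 24713 (block). For silvestrol against DMSO the member leaders called were 0, and 1 (JUNB) with no filter, DESeq2 or without the libraries numbered 2. They were 2 with the block and 0 to 1 over the fits that left out 1 library. Over all features 63 of 24713 were called by edgeR, 215 of 66402 with no filter and 308 of 24713 with DESeq2. Without the libraries numbered 2 the calls were 93 of 24375, and with the block 316 of 24713. Between the compounds 1 member leader (JUN) was called with no filter or the block, where 7 of 66402 and 1 of 24713 features were called. For both rocaglates 2 member leaders, among 121 features called, became 1 (JUN) among 106 with limma voom. They were 0 to 2 over the fits that left out 1 library. The cause was not tested. Depth limits members with few counts, such as FOSL1, FOS, FOSB, the JUNB leader in DMSO and the FOSL2 CDS.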
